A study of Mus musculus with 18 samples.

Results

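The 10 genes described here carry choline into the cell and build phosphatidylcholine from it. The rule lists them by symbol and role and uses no measured value, although the set was drawn up with earlier results of these data known: the choline carriers *Slc44a1*, *Slc44a2* and *Flvcr1*, the choline kinases *Chka* and *Chkb*, the CTP:phosphocholine cytidylyl transferases (CCT) *Pcyt1a* and *Pcyt1b*, the cholinephosphotransferases *Chpt1* and *Cept1*, and the methyltransferase *Pemt*. All 10 were among the 55385 genes of the count table, and all 10 passed the count filter that left 14979 genes for testing. RNA was sequenced from bone marrow-derived macrophages (BMDM) of female C57BL/6J mice aged 12 weeks, grown for 7 days in medium with L-929 culture supernatant, a source of macrophage growth factor. Cells received vehicle (Veh, 0.1% DMSO), 250 µM HC3 (hemicholinium-3, which blocks choline uptake) or 5 µM RSM (RSM-932a, a choline kinase inhibitor) for 24 h. For another 24 h they were either left naïve (M[0]) or polarized with IL-4, the cytokine of alternative activation, at 20 ng/mL (M[IL-4]). Each of the 6 groups has 3 libraries, and the labels give 3 individual mice as the source without tying a library to a mouse. The labels name no genetic change in any group.

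Choline is taken up across the plasma membrane by carrier proteins and phosphorylated by choline kinase, which keeps it inside the cell. Phosphocholine is then activated to CDP-choline by CCT, the step that usually sets the rate of the pathway, and a cholinephosphotransferase joins it to diacylglycerol to give phosphatidylcholine, the main phospholipid of cell membranes. A separate route, prominent in liver, makes phosphatidylcholine by methylating phosphatidylethanolamine. In macrophages, phosphatidylcholine is needed for membrane growth, secretion and phagocytosis.

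The promoters of 3 members are shown because these genes passed the test in at least 3 of the 4 inhibitor comparisons: *Slc44a1* and *Pcyt1a* downward and *Flvcr1* upward. Each run holds the 250 bases before the start site in RefSeq (GRCm38.p6), written 5′ to 3′ on the strand of the gene, with capitals for the letters of a motif named below. *Slc44a1* is read from chr4:53440163-53440412 (plus strand), *Flvcr1* from chr1:191026191-191026440 (minus strand) and *Pcyt1a* from chr16:32430671-32430920 (plus strand).
Slc44a1: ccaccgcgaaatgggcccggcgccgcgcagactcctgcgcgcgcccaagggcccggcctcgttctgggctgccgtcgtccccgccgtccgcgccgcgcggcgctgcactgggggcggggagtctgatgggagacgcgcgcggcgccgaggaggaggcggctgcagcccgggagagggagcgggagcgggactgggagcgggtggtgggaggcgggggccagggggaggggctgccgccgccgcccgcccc
Flvcr1: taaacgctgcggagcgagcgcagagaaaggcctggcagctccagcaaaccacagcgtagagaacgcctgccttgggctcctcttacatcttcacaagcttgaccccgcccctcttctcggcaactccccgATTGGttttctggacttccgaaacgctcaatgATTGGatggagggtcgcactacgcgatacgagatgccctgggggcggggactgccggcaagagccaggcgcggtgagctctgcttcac
Pcyt1a: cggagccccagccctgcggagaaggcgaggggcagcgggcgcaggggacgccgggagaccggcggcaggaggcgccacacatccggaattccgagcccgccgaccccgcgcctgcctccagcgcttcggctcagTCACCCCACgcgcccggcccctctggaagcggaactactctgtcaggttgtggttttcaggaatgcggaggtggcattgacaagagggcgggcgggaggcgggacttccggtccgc
The *Slc44a1* window, of 79.7% G and C when the 50 bases after the start site are counted, held none of the 5 motifs searched. In *Flvcr1* the capitals mark the CCAAT box bound by NF-Y, read on the other strand as ATTGG, at positions -120 and -88 from the start site. In *Pcyt1a* they mark a sterol element, TCACNCCAC, at -116, and its last letters overlap a CCACG.

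Motifs were searched on both strands in windows of 300 bases, and each match is a description only. All 10 members had a window, and the one nearest to the annotated start of the gene was used. TGATGCAA, the element bound by ATF4 with C/EBP factors, was in 0 of 10 members and in 0.895% of the 32851 windows of all genes. CCAAT was in 6 of 10 members (*Chka*, *Chkb*, *Pcyt1b*, *Chpt1*, *Pemt* and *Flvcr1*) against 37.4% of windows, and CCACG, part of the ER stress element, in 5 of 10 against 32.8%. The sterol element was in *Pcyt1a* alone among the members and in 1.24% of windows, and the E-box CACGTG was in 0 of 10 and in 7.15%.

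Total counts were 17457796 to 19522255 per library, and levels are given as CPM, a gene's counts per 1000000 counts of its library after scaling by TMM factors, as mean ± SD (n = 3 libraries). Mitochondrial transcripts took 0.665 to 3.45% of counts, with every HC3 library above and every RSM library below the vehicle libraries. Fewer cells of a type and less RNA per cell cannot be told apart in these bulk samples. None of the 8 macrophage markers was at 0 in any group, and the lowest group mean was 32.0 ± 5.90 CPM (*Mertk* in HC3 M[IL-4]). Their summed level was 20280 to 21360 CPM in Veh M[0] against 8707 to 9799 CPM in HC3 M[0] and 15750 to 17200 CPM in RSM M[0]. *Lyz2* took a large part of that sum, at 11630 ± 584, 5071 ± 658 and 11660 ± 865 CPM with vehicle, HC3 and RSM. *Csf1r* was at 3967 ± 68.0, 1519 ± 22.6 and 1720 ± 70.3 CPM in the same order. By the FDR test described below, 8 of these 8 markers were lower in M[0] with HC3 and 7 of 8 with RSM. Of all genes, 44.1% and 41.1% passed that test in either direction. In M[IL-4] the sum of the macrophage markers was 11800 to 12150 CPM with vehicle, 7469 to 8657 with HC3 and 10600 to 12980 with RSM. There 7 of 8 were lower and 1 higher with HC3, and 1 was lower and 2 higher with RSM. Of all genes, 38.8% passed there with HC3 and 38.6% with RSM. Of 6 stromal markers, *Lum* had at most 3 counts in a group while *Col1a1*, a collagen gene, was at 270.5 ± 66.0 CPM in Veh M[0] and 610.6 ± 103.7 CPM in HC3 M[0]. *Pdgfra* was at 22.1 ± 7.14, 19.0 ± 5.90 and 16.2 ± 4.18 CPM with vehicle, HC3 and RSM in M[0]. *Dcn* was at 8.50 ± 2.06, 7.91 ± 1.38 and 2.99 ± 1.06 CPM in the same order. By the same test, with 5 tested, 3 stromal markers were higher with HC3 in M[0] and 2 in M[IL-4]. With RSM, 2 were higher and 1 was lower in each polarization. The summed stromal level was 506.6 to 855.2 CPM in Veh M[0], 1199 to 1644 in HC3 M[0], 997.8 to 1423 in RSM M[0], 278.3 to 647.7 in Veh M[IL-4], 550.4 to 1038 in HC3 M[IL-4] and 527.3 to 1045 in RSM M[IL-4]. Neutrophil, T cell, B cell, dendritic cell and mast cell markers summed to at most 2.79 CPM per list in any library. The part of the macrophage and stromal markers in the results on choline genes was not tested.

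Per length, the members fell into an abundant and a scarce set. In Veh M[0], *Pcyt1a* stood at 27.1 ± 1.12 CPM per kb of exon, followed by *Cept1* (27.0 ± 1.60), *Flvcr1* (25.7 ± 1.92), *Slc44a1* (22.8 ± 1.09), *Slc44a2* (12.1 ± 0.767), *Chpt1* (4.14 ± 0.331), *Chka* (1.97 ± 0.1565), *Pemt* (0.521 ± 0.0525), *Chkb* (0.255 ± 0.116) and *Pcyt1b* (0.243 ± 0.102). The ranges of *Pcyt1a* and *Cept1*, of *Cept1* and *Flvcr1*, and of *Chkb* and *Pcyt1b* overlapped, and the other neighbours in this order did not. Per kb of the longest transcript instead, the order began with *Pcyt1a* (41.9), *Slc44a1* (36.1), *Flvcr1* (32.9), *Cept1* (29.9) and *Slc44a2* (25.8), and these 5 still stood above *Chpt1* (7.09), *Chka* (5.09) and *Pemt* (1.09). With either inhibitor in M[0], *Flvcr1* took the first place, at 37.5 ± 4.39 CPM per kb with HC3 and 34.9 ± 1.72 with RSM. *Cept1* came next at 25.0 ± 2.69 with HC3, below the range of *Flvcr1*, and at 32.6 ± 2.65 with RSM, where the ranges of both genes overlapped. *Chka* had the higher counted level per kb of the kinases and *Pcyt1a* of the CCT forms in all 6 groups. Of the exon bases of *Chkb*, 50.7% are shared with a gene on the same strand. Reads there may be lost, so its level and its place below *Pemt* may be too low.

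**Figure D1:**
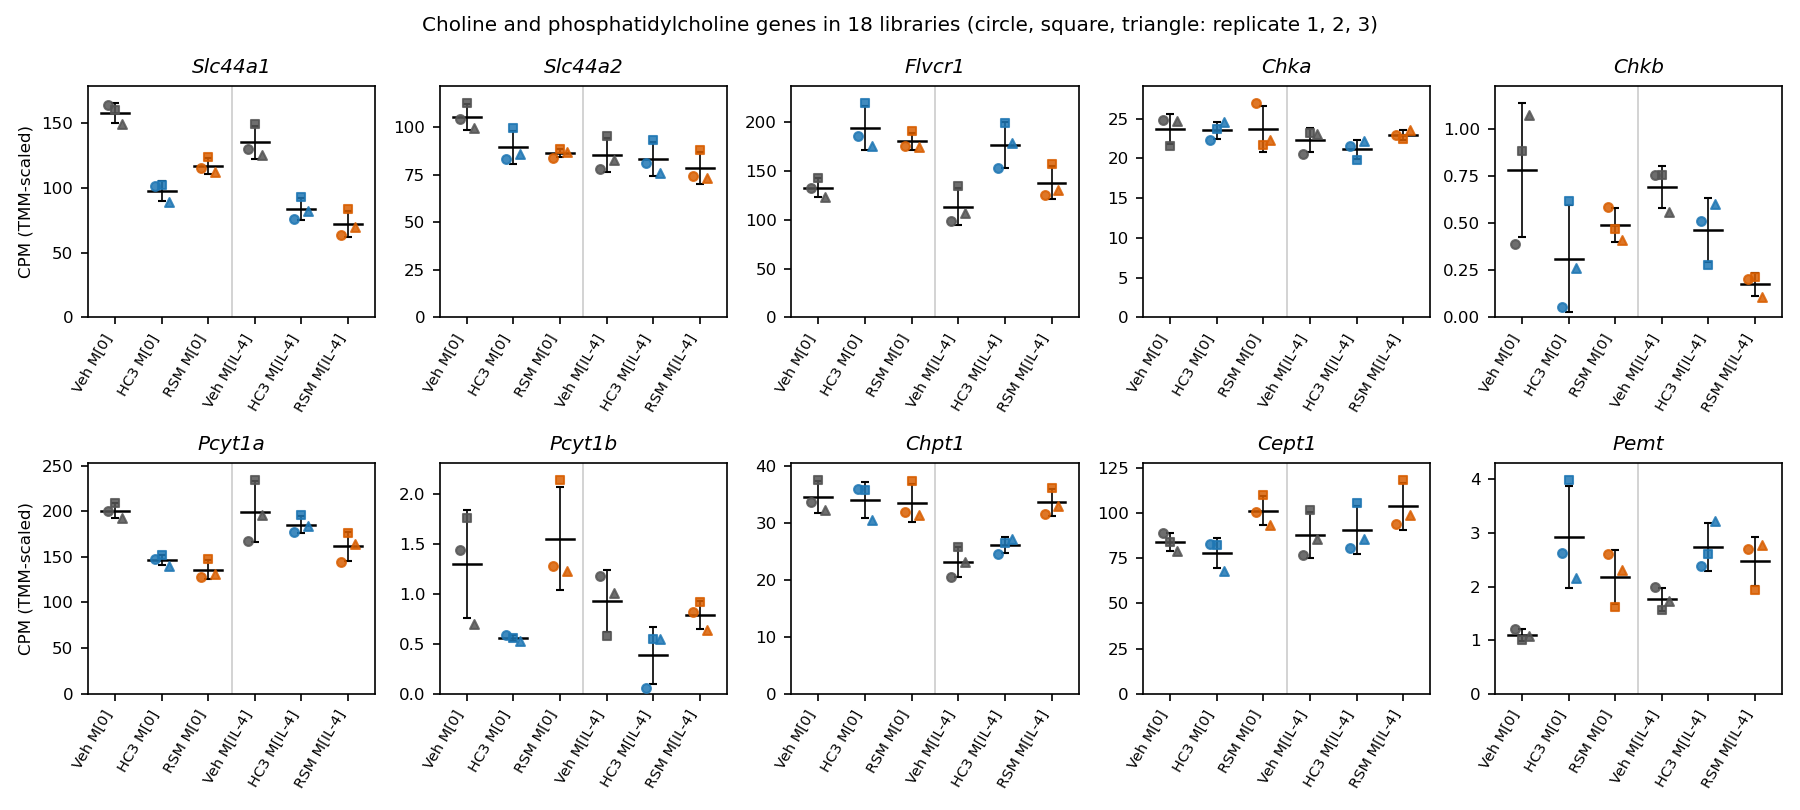
Level of each gene in CPM scaled by TMM (vertical axes, linear, from 0) in the 6 groups, with 1 point per library, a line for the mean and bars for the SD (n = 3). Vehicle is grey, HC3 blue and RSM orange. *Slc44a1* libraries with either inhibitor lie below the vehicle libraries and *Flvcr1* libraries with HC3 lie above them in both polarizations, whereas *Chka* stays between 19.8 and 26.9 CPM throughout.

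In M[0], blocking choline uptake with HC3 lowered *Slc44a1*, *Slc44a2*, *Pcyt1a* and *Pcyt1b* and raised *Flvcr1* and *Pemt*. A gene passed when its Benjamini-Hochberg FDR was under 0.05 in edgeR's quasi-likelihood test over all genes, and was called when its log2 fold change was also at least 1 or at most -1. By the first measure 6 of 10 members passed, against 44.1% of all genes tested, and by the second 2 of 10 were called (*Pemt* higher, *Pcyt1b* lower) against 12.0%. RSM lowered *Slc44a1*, *Slc44a2* and *Pcyt1a* and raised *Flvcr1* and *Pemt* in M[0], so that 5 of 10 passed against 41.1%, and 0 of 10 were called against 11.6%. These shares lie near the background, and the median log2 fold change of the members was -0.17 with HC3 and -0.02 with RSM, where that of all genes was 0.02 and 0.01. Both comparisons use the same vehicle libraries.

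In M[IL-4], 2 of 10 members passed with HC3 (*Flvcr1* higher, *Slc44a1* lower) against 38.8% of all genes, and none reached the fold threshold, against 10.3%. With RSM, *Chpt1* was higher and *Slc44a1*, *Pcyt1a* and *Chkb* were lower, which makes 4 of 10 against 38.6%, and 1 of 10 was called (*Chkb*) against 11.0%. The median log2 fold change of the members was -0.05 with HC3 and -0.04 with RSM, and that of all genes 0.01 and 0.02. Same-numbered libraries of 1 polarization deviate together, and with the replicate number as a block within each polarization 5 of 10 members passed with HC3 in M[IL-4], against 49.0% of all genes under the same block, the additions being *Pemt*, *Pcyt1b* and *Chpt1*.

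**Figure D2:**
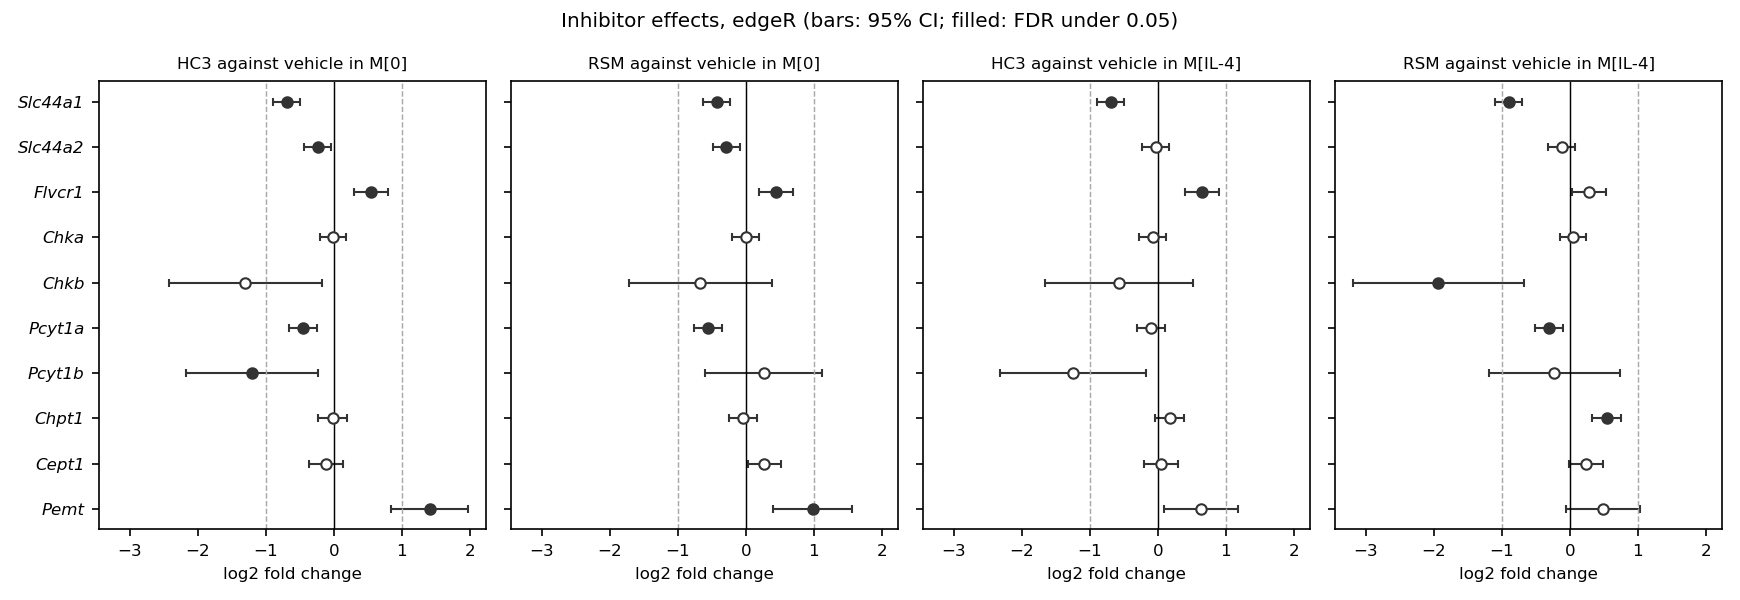
Log2 fold change against vehicle (horizontal axes) of HC3 or RSM, in a panel for each compound and polarization, with 95% confidence intervals from the edgeR fit as bars. Filled points have an FDR under 0.05 and dashed lines mark the fold threshold at -1 and 1. *Slc44a1* is filled and left of 0 in all 4 panels, and the widest intervals belong to the scarce genes *Chkb* and *Pcyt1b*.

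*Slc44a1* (ENSMUSG00000028412, GRCm38 chr4:53440413-53622478, plus strand) encodes CTL1, a sodium-independent choline carrier of the plasma and mitochondrial membranes. Its level in Veh M[0] was 164.1, 160.8 and 149.6 CPM in replicates 1, 2 and 3, against 101.4, 102.6 and 89.1 CPM with HC3 and 115.3, 124.4 and 112.5 CPM with RSM. In M[IL-4] the vehicle libraries held 130.5, 149.9 and 125.8 CPM, the HC3 libraries 75.7, 92.8 and 82.6 CPM and the RSM libraries 63.8, 83.5 and 70.2 CPM. Every inhibitor library was below every vehicle library of its polarization. HC3 changed it by -0.69 ± 0.096 (log2 fold change ± SE, FDR = 9.03e-06) in M[0] and by -0.69 ± 0.096 (FDR = 1.17e-05) in M[IL-4]. RSM changed it by -0.43 ± 0.095 (FDR = 0.00125) in M[0] and by -0.90 ± 0.097 (FDR = 4.51e-07) in M[IL-4]. It was the one member that passed in all 4 inhibitor comparisons and under each of the 11 alternatives to the fit in each of them.

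*Slc44a2* (ENSMUSG00000057193, GRCm38 chr9:21320698-21355028, plus strand) encodes CTL2, a related carrier. It was at 104.2, 112.5 and 99.3 CPM in Veh M[0], at 83.2, 99.2 and 85.7 CPM in HC3 M[0] and at 83.8, 88.3 and 86.9 CPM in RSM M[0]. The highest HC3 library lay just under the lowest vehicle library. The change was -0.24 ± 0.094 with HC3 (FDR = 0.0494) and -0.29 ± 0.094 with RSM (FDR = 0.0203). The first lost its call without replicate 1 (FDR = 0.231), without replicate 3 (FDR = 0.166) and with scaling by library size alone (FDR = 0.0607), and the second without replicate 1 (FDR = 0.112) or 3 (FDR = 0.0811). In M[IL-4], vehicle, HC3 and RSM libraries overlapped at 73.0 to 95.1 CPM, and neither change passed (-0.03 ± 0.095, FDR = 0.820, and -0.12 ± 0.095, FDR = 0.349).

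*Flvcr1* (ENSMUSG00000066595, GRCm38 chr1:191005847-191026158, minus strand), first known as a heme exporter and since described as a choline carrier, went the other way. Its level was 132.5, 143.1 and 123.3 CPM in Veh M[0], 186.4, 219.7 and 176.2 CPM in HC3 M[0] and 176.2, 190.6 and 174.4 CPM in RSM M[0], so that all inhibitor libraries were above all vehicle libraries. In M[IL-4], vehicle libraries were at 98.6, 134.7 and 106.9 CPM, HC3 libraries at 152.8, 199.6 and 178.5 CPM and RSM libraries at 125.5, 157.4 and 131.0 CPM, and the RSM range overlapped that of vehicle. *Flvcr1* rose by 0.55 ± 0.12 with HC3 (FDR = 9.88e-04) and by 0.44 ± 0.12 with RSM (FDR = 0.00577) in M[0], the latter with FDR = 0.0982 without replicate 3. In M[IL-4] it rose by 0.64 ± 0.12 with HC3 (FDR = 2.68e-04), and the RSM change of 0.28 ± 0.12 missed the threshold (FDR = 0.0697) but passed with the replicate block within polarization (FDR = 2.51e-05). Replicate 2 was the highest of its group in all 6 groups. Up to 15.6% of the exon bases of *Flvcr1* lie under a gene of the opposite strand, and those reads cannot be assigned without strand.

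The opposite moves of the carriers changed their balance inside each library. Of the summed level per kb of the 3 carriers, *Slc44a1* made up 37.6 ± 1.175% in Veh M[0] and 38.2 ± 1.75% in Veh M[IL-4], against 22.8 ± 1.38% and 21.6 ± 0.281% with HC3 and 27.4 ± 0.310% and 22.6 ± 0.628% with RSM. The share of *Flvcr1* was 42.4 ± 0.869% and 42.6 ± 1.86% with vehicle, 60.5 ± 1.11% and 61.2 ± 1.68% with HC3, and 56.5 ± 0.240% and 57.8 ± 0.0643% with RSM. The log2 ratio of *Flvcr1* to *Slc44a1* counts was -0.40 to -0.15 in the 6 vehicle libraries, 0.88 to 1.11 in the 6 HC3 libraries and 0.61 to 0.98 in the 6 RSM libraries, with no overlap between vehicle and either inhibitor. These counts are not divided by gene length, so the shift of the ratio between groups is read and not its sign. An exact permutation test of such a ratio cannot go below p = 0.1 at 3 libraries per group, so none was run.

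**Figure D3:**
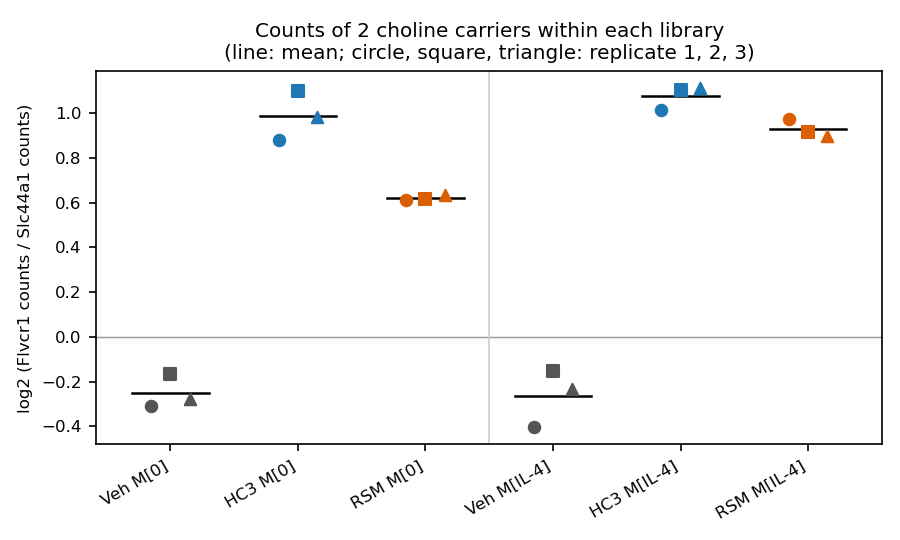
Log2 ratio of *Flvcr1* counts to *Slc44a1* counts within each library (vertical axis) in the 6 groups, with 1 point per library and a line at the mean. Vehicle is grey, HC3 blue and RSM orange. All 6 vehicle libraries are below 0 and all 12 inhibitor libraries are above 0.61. Counts are not divided by gene length, so the sign of the ratio does not rank both genes.

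The kinases carry out the step that RSM inhibits, and a difference in response between the isoforms was not tested. *Chka* (ENSMUSG00000024843, GRCm38 chr19:3851773-3894369, plus strand) encodes choline kinase alpha, the isoform that most cells depend on. It was at 24.8, 21.5 and 24.7 CPM in Veh M[0], 22.4, 23.7 and 24.5 CPM in HC3 M[0] and 26.9, 21.65 and 22.3 CPM in RSM M[0], and the groups overlapped. In M[IL-4] it was at 20.6, 23.2 and 23.1 CPM with vehicle, 21.5, 19.8 and 22.1 CPM with HC3 and 22.9, 22.4 and 23.6 CPM with RSM. The 4 inhibitor changes were between -0.08 and 0.04 with FDR from 0.568 to 0.986, and their 95% confidence intervals lay between -0.27 and 0.24 on the log2 scale. Changes of *Chka* of a size within these intervals remain possible with 3 libraries per group.

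*Chkb* (ENSMUSG00000022617, GRCm38 chr15:89426360-89429908, minus strand), choline kinase beta, had 1 to 20 counts per library. Of its exon bases, 50.7% are shared with *Gm44502* on the same strand and 10.5% with *C730034F03Rik* on the opposite strand, so its counts cover at most part of its transcripts. In Veh M[IL-4] it had 14, 13 and 10 counts against 4, 4 and 2 in RSM M[IL-4], without overlap. That change was -1.93 ± 0.60 (FDR = 0.0153), with FDR = 0.131 without replicate 3. In M[0] it had 7, 15 and 20 counts with vehicle, 1, 12 and 5 with HC3 and 11, 9 and 8 with RSM, and the ranges overlapped. HC3 gave -1.30 ± 0.54 (FDR = 0.0567, and 0.0408 with the replicate block within polarization) and RSM -0.67 ± 0.50 (FDR = 0.3095). HC3 in M[IL-4], at 9, 5 and 11 counts, gave -0.57 ± 0.52 (FDR = 0.422).

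*Pcyt1a* (ENSMUSG00000005615, GRCm38 chr16:32430921-32475070, plus strand) encodes the alpha form of CCT, the rate-limiting enzyme. It was at 200.1, 209.1 and 192.6 CPM in Veh M[0], 147.7, 151.6 and 140.2 CPM in HC3 M[0] and 128.3, 147.8 and 131.6 CPM in RSM M[0]. All inhibitor libraries were below all vehicle libraries. The change was -0.45 ± 0.097 with HC3 (FDR = 8.57e-04) and -0.56 ± 0.097 with RSM (FDR = 1.19e-04), and both passed under all 11 alternatives. In M[IL-4] the vehicle libraries spread from 167.7 to 234.6 CPM and overlapped with HC3 (176.7, 195.9 and 183.6 CPM) and RSM (144.5, 176.0 and 163.6 CPM). HC3 did not pass there (-0.10 ± 0.097, FDR = 0.427), whereas RSM did (-0.31 ± 0.097, FDR = 0.0175), with FDR = 0.130 without replicate 3 and 0.0819 in a fit of only the compared groups.

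*Pcyt1b* (ENSMUSG00000035246, GRCm38 chrX:93654863-93749951, plus strand), the beta form, had 1 to 41 counts per library. In M[0] it had 26, 30 and 13 counts with vehicle, 11, 11 and 10 with HC3 and 24, 41 and 24 with RSM. HC3 changed it by -1.20 ± 0.46 (FDR = 0.0429), and the call was lost when replicate 1, 2 or 3 was left out (FDR = 0.1145, 0.2015 and 0.0890) and with scaling by library size alone (FDR = 0.0506). RSM gave 0.26 ± 0.41 (FDR = 0.652). In M[IL-4], counts were 22, 10 and 18 with vehicle, 1, 10 and 10 with HC3 and 16, 17 and 12 with RSM. The HC3 change of -1.24 ± 0.51 missed the threshold (FDR = 0.0621, and 0.0400 with the replicate block within polarization), and RSM gave -0.23 ± 0.46 (FDR = 0.731).

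For the last step of the pathway, *Chpt1* with RSM in M[IL-4] was the change that passed among the 4 inhibitor comparisons. *Chpt1* (ENSMUSG00000060002, GRCm38 chr10:88452745-88504073, minus strand), a cholinephosphotransferase of the Golgi, was at 20.5, 25.7 and 23.0 CPM in Veh M[IL-4], 24.5, 26.3 and 27.2 CPM in HC3 M[IL-4] and 31.5, 36.1 and 32.9 CPM in RSM M[IL-4]. The RSM libraries lay above both other groups. RSM raised it by 0.54 ± 0.10 (FDR = 2.67e-04) under all 11 alternatives, and HC3 gave 0.18 ± 0.10 (FDR = 0.192, and 0.0470 with the replicate block within polarization). In M[0] all 9 libraries were between 30.4 and 37.5 CPM, and the changes were -0.02 ± 0.099 with HC3 (FDR = 0.898) and -0.04 ± 0.099 with RSM (FDR = 0.774).

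*Cept1* (ENSMUSG00000040774, GRCm38 chr3:106502260-106547802, minus strand) encodes the enzyme of the endoplasmic reticulum that uses both CDP-choline and CDP-ethanolamine. In M[0] it was at 89.0, 84.2 and 79.0 CPM with vehicle, 83.0, 82.4 and 68.2 CPM with HC3 and 100.9, 110.0 and 93.5 CPM with RSM. Every RSM library was above every vehicle library, with a change of 0.27 ± 0.12 that missed the threshold (FDR = 0.0726) but passed with the replicate block within polarization (FDR = 7.22e-05). In M[IL-4], RSM gave 0.24 ± 0.12 (FDR = 0.120, and 2.88e-04 with that block). HC3 gave -0.11 ± 0.12 (FDR = 0.479) in M[0] and 0.04 ± 0.12 (FDR = 0.800) in M[IL-4]. Of its exon bases, 24.9% are shared with genes on the opposite strand.

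*Pemt* (ENSMUSG00000000301, GRCm38 chr11:59970614-60046489, minus strand), the methyltransferase of the separate route, was scarce but rose with both inhibitors in M[0]. It had 22, 17 and 20 counts in Veh M[0] (1.10 ± 0.1105 CPM), 49, 78 and 41 in HC3 M[0] (2.92 ± 0.955 CPM) and 49, 31 and 45 in RSM M[0] (2.18 ± 0.509 CPM), with no overlap with vehicle. The rise was 1.41 ± 0.27 with HC3 (FDR = 3.22e-04), a fold change of 2.66 that passed under all 11 alternatives, and 0.99 ± 0.28 with RSM (FDR = 0.00776), which lost its call without replicate 1 (FDR = 0.0860) or 3 (FDR = 0.0887). In M[IL-4] it had 37, 27 and 31 counts with vehicle, 42, 47 and 59 with HC3 and 53, 36 and 52 with RSM. Neither change passed there, at 0.63 ± 0.26 with HC3 (FDR = 0.0616, and 0.04998 with the replicate block within polarization) and 0.48 ± 0.26 with RSM (FDR = 0.155).

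IL-4 itself lowered *Chpt1* and *Slc44a2* in vehicle-treated cells. There 2 of 10 members passed, both lower, against 31.0% of all genes, and 0 of 10 were called against 6.66%. *Chpt1* fell from 34.5 ± 2.76 CPM in Veh M[0] to 23.0 ± 2.60 CPM in Veh M[IL-4] (log2 fold change -0.58 ± 0.10, FDR = 2.17e-04), with every M[IL-4] library below every M[0] library. *Slc44a2* went from 105.3 ± 6.66 to 85.2 ± 8.96 CPM (-0.31 ± 0.094, FDR = 0.0186), with FDR = 0.1555 without replicate 1 and 0.117 without replicate 3. *Slc44a1* gave -0.22 ± 0.095 (FDR = 0.0824), *Pcyt1a* -0.01 ± 0.096 (FDR = 0.961), *Chka* -0.09 ± 0.093 (FDR = 0.516) and *Pemt* 0.68 ± 0.28 (FDR = 0.0770), none of which passed. The median over the members was -0.20, where that of all genes was -0.01.

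With HC3 present, 2 of 10 members differed between M[IL-4] and M[0], against 14.7% of all genes, and 0 of 10 were called against 3.97%. *Chpt1* was lower in M[IL-4] (-0.39 ± 0.10, FDR = 0.0129), with FDR = 0.149 without replicate 1 and 0.0675 without replicate 3, and *Pcyt1a* was higher (0.34 ± 0.097, FDR = 0.0232), with FDR = 0.269 without replicate 3. With RSM present, 2 of 10 passed against 15.5%, and 0 of 10 were called against 4.26%. These were *Slc44a1*, lower by -0.70 ± 0.097 (FDR = 3.18e-05) under all 10 alternatives, and *Flvcr1*, lower by -0.39 ± 0.12 (FDR = 0.0316), with FDR = 0.143 without replicate 1 and 0.264 without replicate 3. *Chpt1* was at 33.5 ± 3.37 CPM in RSM M[0] and 33.5 ± 2.35 CPM in RSM M[IL-4] (0.00 ± 0.099, FDR = 0.995, 95% confidence interval -0.21 to 0.21). The median over the members was -0.12 with HC3 and -0.09 with RSM, and that of all genes -0.01 and 0.00.

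**Figure D4:**
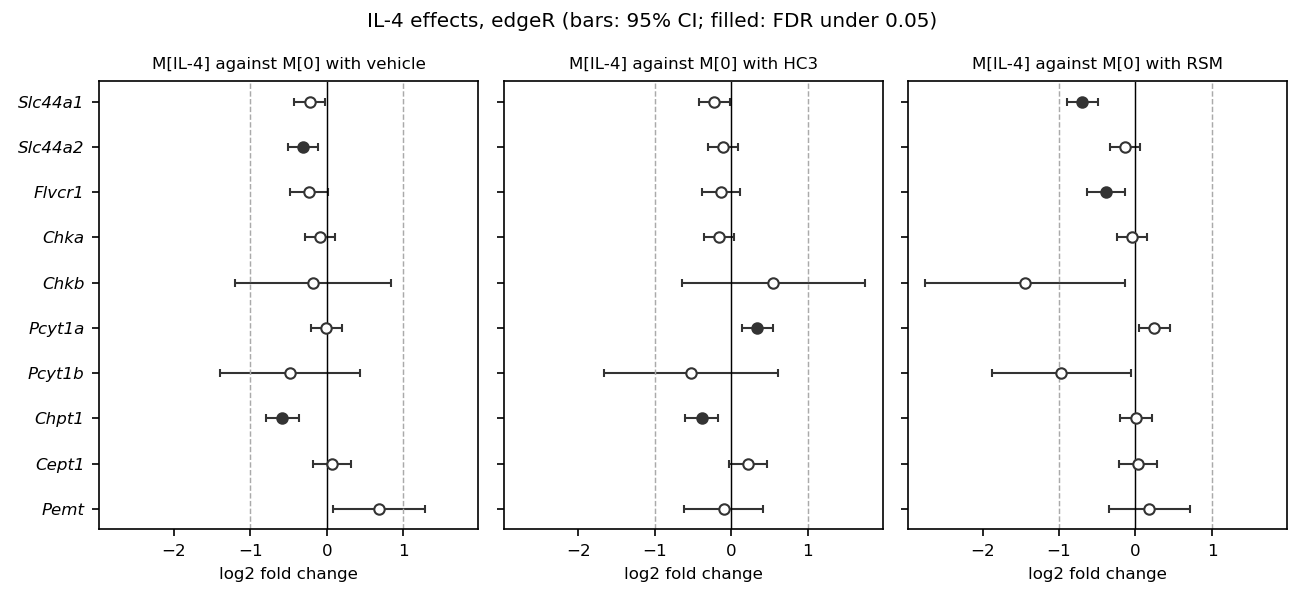
Log2 fold change of M[IL-4] against M[0] (horizontal axes) with vehicle, HC3 or RSM, with 95% confidence intervals from the edgeR fit as bars. Filled points have an FDR under 0.05 and dashed lines mark -1 and 1. *Chpt1* is filled and left of 0 with vehicle and HC3 and sits at 0.00 with RSM, where *Slc44a1* and *Flvcr1* are the filled points.

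Whether an inhibitor acted differently in M[IL-4] and M[0] was tested as an interaction. For RSM, 2 of 10 members passed, against 9.19% of all genes, and 0 of 10 were called against 2.14%. The RSM effect on *Chpt1* was higher in M[IL-4] than in M[0] by 0.58 ± 0.14 (FDR = 0.0124), with FDR = 0.108 without replicate 1 and 0.179 without replicate 3. Its effect on *Slc44a1* was lower in M[IL-4] by -0.47 ± 0.14 (FDR = 0.0337), with FDR = 0.136 without replicate 1 and 0.269 without replicate 3. For HC3, 0 of 10 passed by edgeR and 0 by DESeq2, 1 had an unadjusted p under 0.05, and 6.48% of all genes passed and 1.24% were called. That gene was *Pcyt1a*, at 0.35 ± 0.14 (FDR = 0.152), which passed with the replicate block within polarization (FDR = 0.00102). With the same block *Pcyt1a* also passed for RSM (0.26 ± 0.14, FDR = 0.301 without and 0.0115 with the block). The HC3 effect on *Slc44a1* differed between M[IL-4] and M[0] by 0.00 (95% confidence interval -0.28 to 0.29).

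HC3 at 250 µM and RSM at 5 µM, which differ in dose and in target, were also set against each other. In M[0], 2 of 10 members passed, against 13.6% of all genes, and 1 of 10 was called (*Pcyt1b*) against 3.04%. *Pcyt1b* was lower with HC3 than with RSM (0.559 ± 0.0314 against 1.55 ± 0.513 CPM, -1.46 ± 0.45, FDR = 0.0375), and lost its call without replicate 1 (FDR = 0.0775), 2 (FDR = 0.2035) or 3 (FDR = 0.201). *Cept1* was also lower with HC3 (-0.38 ± 0.12, FDR = 0.0362), with FDR = 0.0729 without replicate 1 and 0.282 without replicate 3. *Slc44a1* was lower with HC3 in all 3 pairs (-0.27 ± 0.096, FDR = 0.0768, and 2.00e-04 with the replicate block within polarization).

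In M[IL-4], 1 of 10 members passed between HC3 and RSM, against 13.0% of all genes, and 0 of 10 were called against 2.80%. *Chpt1* was lower with HC3 (-0.37 ± 0.10, FDR = 0.0194), with FDR = 0.100, 0.0805 and 0.159 without replicate 1, 2 or 3. With the replicate block within polarization 5 of 10 members passed, against 24.1% of all genes under that block, and *Flvcr1* (0.36 ± 0.12, FDR = 0.0530 without and 3.00e-06 with the block), *Slc44a1* (0.21 ± 0.097, FDR = 0.192 and 0.00347), *Pcyt1a* (0.20 ± 0.097, FDR = 0.208 and 0.00458) and *Cept1* (-0.19 ± 0.12, FDR = 0.339 and 0.00475) joined *Chpt1*. *Chka* differed between the compounds by -0.01 in M[0] (95% confidence interval -0.20 to 0.19) and by -0.12 in M[IL-4] (-0.31 to 0.08).

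Around the pathway, choline carriers outside the members were close to absent. None of 8 (*Slc44a3*, *Slc44a4*, *Slc44a5*, *Slc5a7*, *Slc22a2*, *Slc22a3*, *Flvcr2* and *Slc25a48*) passed the count filter. *Slc5a7*, the high-affinity carrier of cholinergic neurons, had 20 counts over the 18 libraries and at most 5 in any one, and *Flvcr2* had 66 counts. Likewise none of 4 acetylcholine genes (*Chat*, *Slc18a3*, *Ache* and *Bche*) was tested, and *Chat*, which makes acetylcholine from choline, had 0 counts.

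Choline oxidation, which turns choline into betaine and onward to glycine, had 3 tested genes of 7. *Chdh*, the mitochondrial choline dehydrogenase that opens this route, had 0 counts in all 6 vehicle libraries. It had 13, 25 and 18 counts in HC3 M[0], 19, 28 and 29 in RSM M[0], 12, 12 and 11 in HC3 M[IL-4] and 12, 8 and 10 in RSM M[IL-4]. Against a floor of 3 counts over the vehicle group, the observed level was 17.6-fold higher with HC3 and 23.8-fold with RSM in M[0]. In M[IL-4] it was 11.6-fold and 9.43-fold higher. The error of the inhibitor counts is not part of these values. With 0 counts in vehicle, *Chdh* passed the count filter only through the inhibitor libraries, so its test results are not used as support. *Sardh*, which removes the last methyl group of the route, was lower in M[IL-4] with HC3 (-1.02 ± 0.29, FDR = 0.00945) and RSM (-0.92 ± 0.29, FDR = 0.0167) and did not pass in M[0]. The first lost its call without replicate 1 (FDR = 0.0936) and the second without replicate 2 (-0.57, FDR = 0.0600) or 3 (FDR = 0.0646). *Aldh7a1*, a betaine aldehyde dehydrogenase, passed as lower with RSM in M[0] (-0.22), under 5 of 11 alternatives. Apart from *Chdh*, no gene of the list passed as higher in the 4 inhibitor comparisons (HC3 M[0], RSM M[0], HC3 M[IL-4], RSM M[IL-4]), and 0, 1, 1 and 1 were lower. Of all genes, 44.1, 41.1, 38.8 and 38.6% passed in the same order.

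All 18 genes that release choline or its precursors from phospholipid were tested. With HC3 3 were higher and 7 lower in M[0], and 5 higher and 4 lower in M[IL-4]. With RSM 4 were higher and 7 lower in M[0], and 5 were higher and 5 lower in M[IL-4]. Among all genes tested, the shares that passed were 44.1, 38.8, 41.1 and 38.6%, in the order of these results. The median of the list in M[0] was -0.20 for HC3 and -0.22 for RSM, and in M[IL-4] it was -0.03 and -0.02 in the same order, beside 0.02, 0.01, 0.01 and 0.02 for all genes. *Pla2g15*, a lysosomal phospholipase, fell from 298.7 ± 17.7 CPM in Veh M[0] to 139.2 ± 2.31 CPM with HC3 and 101.5 ± 4.31 CPM with RSM (-1.10 and -1.56, FDR = 1.39e-10 and 2.385e-12). *Pla2g4a*, the cytosolic phospholipase that frees arachidonic acid, went from 19.5 ± 0.901 CPM to 55.6 ± 5.56 and 61.4 ± 3.86 CPM (1.51 and 1.65, FDR = 1.39e-11 and 6.00e-12). Both moved the same way in M[IL-4], by -0.79 and -0.89 for *Pla2g15* and by 0.84 and 0.83 for *Pla2g4a*, with HC3 and RSM in turn, and all passed.

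*Enpp2*, which encodes autotaxin and splits choline from lysophosphatidylcholine, was at 17.3 ± 5.86 CPM in Veh M[0], 8.33 ± 2.43 with HC3 and 2.20 ± 0.7565 with RSM. It fell with HC3 (-1.05 ± 0.32, FDR = 0.01115) and RSM (-2.97 ± 0.37) in M[0], the former with FDR = 0.138 without replicate 3, and with RSM in M[IL-4] (-1.94 ± 0.31), and did not pass with HC3 in M[IL-4] (-0.34 ± 0.29, FDR = 0.391, and 0.00679 with the replicate block within polarization). *Gdpd5*, a glycerophosphodiesterase acting on glycerophosphocholine, fell in all 4 comparisons (-0.96, -1.12, -0.93 and -0.68). *Enpp6*, a choline phosphodiesterase, had 35 counts over Veh M[IL-4] and 5 over HC3 M[IL-4] (FDR = 0.0133, and 0.0562 and 0.0764 without replicates 1 and 2).

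Phosphatidate phosphatases of the lipin family, which supply the diacylglycerol used by *Chpt1* and *Cept1*, all passed in the 4 inhibitor comparisons. Of all genes, 44.1, 41.1, 38.8 and 38.6% passed in these comparisons. *Lpin1* and *Lpin2* were lower and *Lpin3* was higher in each. *Lpin2* was at 239.5 ± 11.3 CPM in Veh M[0], 118.7 ± 5.25 with HC3 and 142.4 ± 5.73 with RSM (-1.01 ± 0.067 and -0.75 ± 0.066). *Lpin3*, scarce in vehicle at 0.874 ± 0.294 CPM, reached 2.79 ± 0.5115 CPM with HC3 and 4.62 ± 0.692 CPM with RSM in M[0] (1.67 ± 0.31 and 2.39 ± 0.30), and its HC3 change in M[IL-4] was 0.86 ± 0.34 (FDR = 0.0492), which passed under 4 of 11 alternatives. The median of the list was -0.95, -0.75, -0.38 and -0.28 in the 4 comparisons.

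In the CDP-ethanolamine branch, the parallel route to phosphatidylethanolamine, 3 of 4 genes were tested. *Pcyt2*, which makes CDP-ethanolamine, was lower in all 4 inhibitor comparisons (-0.43 ± 0.11, -0.39 ± 0.11, -0.75 ± 0.11 and -0.63 ± 0.11), the second with FDR = 0.0890 without replicate 3. With HC3 and with RSM in M[0], 1 other gene of the branch was higher (*Selenoi*, the ethanolamine phosphotransferase, at 0.25 and 0.22, lost without replicate 3 at FDR = 0.105 and 0.187), and *Etnk1* did not pass in any of the 4. The median of the list was -0.11, -0.17, -0.03 and -0.07, and 44.1, 41.1, 38.8 and 38.6% of all genes passed in the 4 comparisons.

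**Figure D5:**
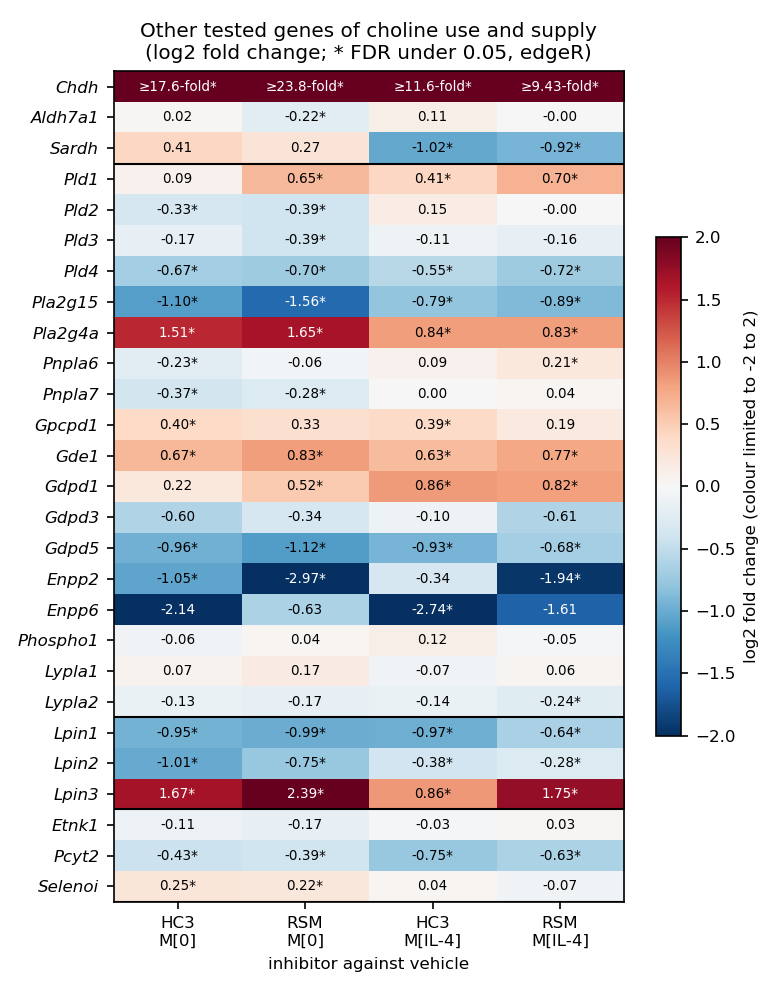
Log2 fold change against vehicle (numbers and colour, red for higher and blue for lower, colour limited to -2 to 2) of the tested genes of choline oxidation, choline release, diacylglycerol supply and the CDP-ethanolamine branch, separated by lines. Asterisks mark an FDR under 0.05. *Chdh* shows its observed level against a floor of 3 counts over the vehicle group, without the error of the inhibitor counts. It passed the count filter only through the inhibitor libraries, so its asterisks are not used as support. *Lpin3* is red and *Lpin1*, *Lpin2* and *Pcyt2* are blue in all 4 columns.

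The genes whose levels ran closest to those of a member over the 18 libraries were taken by Pearson's r of log2 CPM among 8811 genes, as a description, since libraries of a group share their treatment. For *Slc44a1* these were *Cybb* (r = 0.972), the gp91phox subunit of the phagocyte NADPH oxidase, *Nfe2l2* (r = 0.950), the antioxidant regulator NRF2, and *Nrp2* (r = 0.950), a semaphorin co-receptor. For *Flvcr1* they were *Gpcpd1* (r = 0.947), which splits glycerophosphocholine and is on the choline release list, *Mospd1* (r = 0.925) and *Cln8* (r = 0.924). For *Chka* the best matches were weaker, *Cdc16* (r = 0.667), *Ahsa2* (r = 0.665) and *Ipo9* (r = 0.662). Among the members, and picked after the values were seen, *Slc44a1* ran with *Slc44a2* (r = 0.726) and against *Pemt* (r = -0.743), and with *Flvcr1* its r was -0.24.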

How the data were processed

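RNA-seq counts of 18 bulk libraries were analysed, 3 in each of 6 groups given by the inhibitor and polarization in the labels. The deposited values are raw counts per Ensembl gene and library. To make them, the authors trimmed adapters with fastp, aligned to GRCm38 with STAR, kept confidently mapped pairs, marked duplicates with Picard and counted exons with featureCounts. The annotation release and strand setting are not given in the sources used here, so reads on exons shared by 2 genes may be lost or may belong to either gene.

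GENCODE M21 (GRCm38) gave symbols and exons for 55144 of 55385 genes. A gene entered the test if 2 or more libraries held 10 or more of its counts (14979 genes). The test was the quasi-likelihood F test of edgeR 4.0.16 (R 4.3.3, TMM scaling) as in the study's methods, with a single fit over all libraries, a coefficient per group and no block, a design those methods do not spell out. The FDR was computed over all genes tested. Levels per kb used the union of exons, and SEs come from the F statistic. The alternatives were a replicate block over all libraries or within polarization, fits limited to the groups compared, DESeq2 1.42.0, omission of the count filter, filterByExpr, scaling by library size, removal of mitochondrial genes, and omission of each replicate number. Same-numbered libraries of 1 polarization correlated in their residuals at 0.110 to 0.372 (18 of 18 pairs above 0.1), so the numbers pair libraries there. Across polarizations 12 of 27 same-numbered pairs were above 0.1 (median 0.0757), against 10 of 54 pairs of different number (median -0.118). Any pairing across polarizations is thus weaker and is not settled. Replicates deviated beyond counting error (chi-square per gene of 6.33 to 20.4), and intervals on counts cover counting error only. The fit was also run on simulated counts for HC3 against vehicle in M[0], where it recovered 200 of 200 changed genes with 6 false calls. The planted changes were larger than those of most members, in genes with more counts than *Chkb* or *Pcyt1b*, and libraries were not paired. That run therefore does not cover small changes, scarce genes or pairing. Transcripts shared at 98% identity over 100 bp or more were searched with blastn 2.17.0 and were found only in genes overlapping a member.

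Named genes are the 10 members, list genes called in at least 1 inhibitor comparison, and the 3 genes most like *Chka*, *Slc44a1* and *Flvcr1* by r of log2 CPM (prior count 2, mean of at least 10 CPM). *Aldh7a1*, *Lpin1*, *Pcyt2*, *Etnk1*, *Selenoi*, carriers and acetylcholine genes were named outside this rule, after their values were seen. The members and lists were chosen with earlier results of these data known. No column of the table was left unmapped. Some genes are not reported here.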

Additional observations from a re-analysis of the deposited data

Results flagged for a closer look

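2 results drew a closer look because an inhibitor effect differed between M[0] and M[IL-4] by the interaction term of the edgeR fit. The effect of RSM on *Chpt1* was 0.58 higher on the log2 scale in M[IL-4] than in M[0] (0.5829, FDR = 0.0124), where *Chpt1* was at 34.5 ± 2.76 and 33.5 ± 3.37 CPM with vehicle and RSM in M[0] and at 23.0 ± 2.60 and 33.5 ± 2.35 CPM in M[IL-4] (n = 3 libraries each). The effect of RSM on *Slc44a1* was lower in M[IL-4] than in M[0] (-0.4717, FDR = 0.0337), where *Slc44a1* was at 158.2 ± 7.55 and 117.4 ± 6.24 CPM in M[0] and at 135.4 ± 12.8 and 72.5 ± 10.0 CPM in M[IL-4]. Neither passed when replicate 1 or replicate 3 was left out, and both passed with the replicate block within polarization (FDR = 9.40e-05 and 1.86e-05). The macrophage markers, whose summed level is given in the report, moved in the same comparison. By the same interaction, the effect of RSM on 6 of 8 of them was higher in M[IL-4] than in M[0], where 9.19% of all genes passed. The part of these markers in the 2 results was not tested.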

How the results depend on the processing

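For 127 log2 fold changes of members and named list genes, a subset without the interactions and differences between HC3 and RSM that neither passed nor are given in the text, the alternatives gave 1367 values, of which 1219 kept direction and side of the threshold, 60 no longer passed, 61 newly passed and 27, in 18 results, changed sign. No result that changed sign passed as reported or under the alternative that turned it. Scaling by library size alone gave changes of 0.034 and 0.025 for *Chka* and *Chpt1* with HC3 in M[0], 0.053 and 0.01535 for the same genes with RSM in M[0], 0.018 for *Slc44a2* with HC3 in M[IL-4], and -0.059 and -0.029 for *Chpt1* and *Cept1* between polarizations with RSM. *Chpt1* in that last comparison was also at -0.0026 with only the compared groups, -0.0094 with DESeq2 and -0.0045 without mitochondrial genes, and *Pcyt1a* between polarizations with vehicle at 0.0070 with no count filter. The cause of these sign changes was not tested.

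With 1 replicate number left out, *Chka* ranged from -0.092 to 0.057 with HC3 and from -0.069 to 0.065 with RSM in M[0], from -0.138 to 0.0012 and from -0.010 to 0.078 in M[IL-4], from -0.108 to 0.057 between polarizations with RSM, and from -0.083 to 0.126 between HC3 and RSM in M[0]. *Slc44a2* with HC3 in M[IL-4] ranged from -0.072 to 0.020 and the interaction of HC3 on *Slc44a1* from -0.047 to 0.053. Between polarizations with vehicle, *Chkb* ranged from -0.578 to 0.256, *Pcyt1a* from -0.116 to 0.095, *Pcyt1b* from -0.843 to 0.037 and *Cept1* from -0.053 to 0.196. With HC3, *Pcyt1b* ranged from -0.878 to 0.020 and *Pemt* from -0.396 to 0.242, and with RSM *Chpt1* ranged from -0.039 to 0.023 and *Cept1* from -0.020 to 0.090.

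The number of members that passed moved by over 1.5 times as follows. With the replicate block within polarization, where the numbers pair the libraries, it went from 2 to 5 with HC3 in M[IL-4] (49.0% of all genes under that block). It went from 0 to 1 for the HC3 interaction (17.3%) and from 1 to 5 between HC3 and RSM in M[IL-4] (24.1%). A replicate block across both polarizations, where pairing by number is weaker and not settled, gave 4, 3 and 3 members between polarizations in place of 2, 2 and 2. It gave 1 for the HC3 interaction and 4 between HC3 and RSM in M[IL-4]. Of all 14979 genes tested, 5492, 3157 and 3149 then passed between polarizations with vehicle, HC3 and RSM, in place of 4649, 2201 and 2326. That block gave 1577 genes for the HC3 interaction and 2677 between HC3 and RSM in M[IL-4], in place of 970 and 1947. Library size alone gave 4 members between polarizations with vehicle and 2 between HC3 and RSM in M[IL-4]. In the latter, DESeq2, no count filter and the omission of mitochondrial genes also gave 2 members. No count filter gave 1 member for the HC3 interaction. Over all genes, library size alone gave 4743 and 2013 in its 2 comparisons. With 1 replicate number left out, 4 to 6 and 2 to 5 members passed with HC3 and RSM in M[0], 2 to 3 and 2 to 5 in M[IL-4], 1 to 4, 0 to 2 and 1 to 2 between polarizations with vehicle, HC3 and RSM, 0 to 1 and 0 to 2 for the interactions of HC3 and RSM, and 0 to 1 between HC3 and RSM in both polarizations.

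Over all genes, leaving out replicate 3 lowered the number that passed from 6608 to 4250 and from 6159 to 3872 with HC3 and RSM in M[0], from 5810 to 3477 and from 5785 to 3535 in M[IL-4], from 4649 to 2334, 2201 to 792 and 2326 to 1022 between polarizations with vehicle, HC3 and RSM, from 970 to 88 and 1377 to 271 for the interactions, and from 2039 to 662 and 1947 to 547 between HC3 and RSM. Called genes then went from 594 to 346 and 638 to 421 between polarizations with HC3 and RSM, from 186 to 46 and 321 to 128 for the interactions, and from 456 to 256 and 419 to 217 between HC3 and RSM. The HC3 interaction gave 1577 genes with the replicate block, 2592 (288 called) with it within polarization, 522 (112 called) without replicate 1 and 603 without replicate 2. The RSM interaction and HC3 against RSM in M[0] and M[IL-4] gave 2905, 3985 and 3612 with the block within polarization and 883, 1347 and 1289 without replicate 1.

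Per kb of the longest transcript, levels in Veh M[0] moved to 41.9 (*Pcyt1a*), 36.1 (*Slc44a1*), 32.9 (*Flvcr1*), 29.9 (*Cept1*), 25.8 (*Slc44a2*), 7.09 (*Chpt1*), 5.09 (*Chka*) and 1.09 (*Pemt*). At 1 to 20 counts per library for *Chkb* and 1 to 41 for *Pcyt1b*, the error of both genes was wide, and whether depth set which of their changes missed the threshold was not tested. The labels do not say which mouse gave which library, so p-values measure the spread between libraries, which may be partly technical.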
